A study of Rattus norvegicus with 6 samples.

Results

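Matrix metalloproteinases (MMPs) are zinc-dependent proteases that cut collagens, elastin, proteoglycans and many other proteins outside the cell, and the tissue inhibitors of metalloproteinases (TIMPs) are small secreted proteins that bind their active sites. The genes described here were 6 MMPs (Mmp2, Mmp9, Mmp12, Mmp13, Mmp14 and Mmp19) and 4 TIMPs (Timp1, Timp2, Timp3 and Timp4). They were taken by gene symbol from the table of expressed genes, and made up 10 of the 19616 genes listed there. RNA depleted of ribosomal RNA was sequenced from the livers of male SD rats, with 1 library per rat. The fibrosis group (FL, rats FL2, FL5 and FL12) was given carbon tetrachloride (CCl4), which is toxic to hepatocytes, mixed with an equal volume of olive oil, by intraperitoneal injection of 2 mL/kg, 2 times a week for 5 weeks. The control group (CL, rats CL5, CL6 and CL7) was given the same volume of plain olive oil. The study injected 15 FL and 10 CL rats, of which 3 in each group were sequenced, and all were killed after the course of injections, so no rat was followed into recovery.

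In fibrotic liver, activated stellate cells lay down collagen, and the balance between MMPs and TIMPs helps to set how much of it is degraded. Most MMPs are made as inactive precursors, so the transcript level does not give the activity of the enzyme. Metalloproteinases are commonly made by stellate cells, macrophages and neutrophils, whereas hepatocytes form most of the tissue.

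Expression was given in FPKM (fragments mapped to a gene, relative to transcript length and library size), which allows levels of different genes to be set side by side. FPKM summed to 309425, 340467 and 315259 in CL5, CL6 and CL7, and to 309226, 272350 and 272110 in FL2, FL5 and FL12. Read counts were not used here, and the smallest steps of the U6 genes gave a depth relative to the deepest library (CL5, 1) of 0.656 in CL6, 0.840 in CL7, 0.667 in FL2, 0.724 in FL5 and 0.677 in FL12. CL6, FL2 and FL12 were thus the shallowest libraries. They are not ranked among themselves, because FPKM were given with 2 decimals. Values below about 0.1 FPKM were the least certain. Albumin (Alb), the defining product of hepatocytes, was at 32272 ± 1010 FPKM (mean ± SD, n = 3) in CL and 24803 ± 572 FPKM in FL livers. Fold changes are FL over CL on the log2(FPKM + 0.1) scale, which understates the change of genes with low values. A gene was called upregulated or downregulated where limma gave an adjusted p under 0.05 and the change was 2-fold or more. The log2 fold change of the median gene was 0.29 (0.08 after median scaling of the rats, -0.04 after quantile normalization), and 77.9% of the 14864 genes tested had a positive value. Changes are therefore also given relative to this median. In whole liver, a change in the number of cells of a type and a change in RNA per cell cannot be told apart.

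Of the 10 genes, 8 reached the mean of 0.1 FPKM required for the test, and Mmp13 and Timp4 did not. Mmp2, Mmp12, Timp2 and Timp3 were called upregulated, that is 4 of the 8, against 9.29% of all genes tested. None of the 8 was called downregulated by limma, nor was any lower at an unadjusted p under 0.05 (0 in both cases), against 0.935% of all genes called downregulated. With no limit on the fold change Mmp14 joined the upregulated genes, making 5 of 8 at an adjusted p under 0.05, against 16.9% of all genes. In 7 of 8 every FL rat was above every CL rat, as it was for 35.7% of all genes tested. Mmp9 is among these 7 although it reached the minimum mean through FL5, and without it the count is 6 of 7. The median log2 fold change of the 8 was 1.23, which is 0.94 above the median gene.

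The order of the levels differed between the groups. In CL livers the mean FPKM fell from Mmp14 through Mmp19, Timp2, Timp3, Mmp2 and Timp1 to Mmp12, Mmp9, Timp4 and Mmp13. Timp3, Mmp2 and Timp1 were neighbours in this order that did not differ beyond their SDs, and the same held for Mmp12, Mmp9 and Timp4. Within each CL rat, however, Timp3 and Mmp2 were both above Timp1. In FL livers the order was Mmp14, Mmp19, Mmp2, Mmp12, Timp2, Timp3, Timp1, Mmp9, Timp4 and Mmp13. Here each neighbour from Mmp19 down to Timp1 was within the SDs of the next, whereas Mmp14 lay above Mmp19 and Mmp9 below Timp1. Within each FL rat, however, Mmp19 was above Mmp2, Timp2 above Timp3 and Timp3 above Timp1. The order of Mmp12 with Mmp2 and with Timp2 differed between FL rats. Among all 19616 genes ranked by their mean, Mmp12 stood at position 13970 in CL and 2379 in FL livers. Mmp2 stood at 6814 and 1966, whereas Mmp14, at 1217 and 811, was high in both groups.

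**Figure D1:**
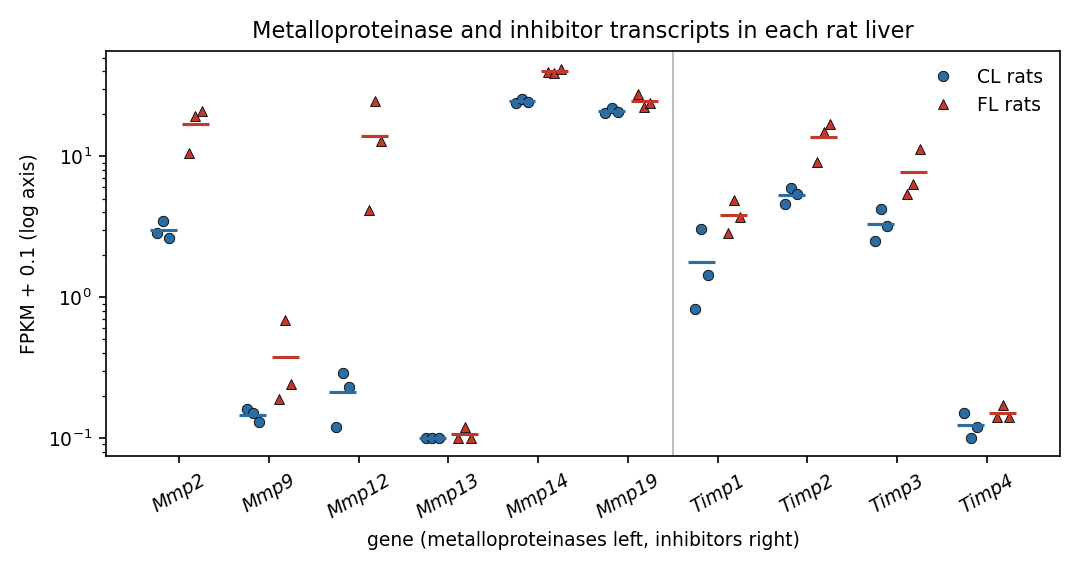
FPKM + 0.1 of each metalloproteinase (left of the grey line) and inhibitor (right) in each rat liver, on a log axis. Circles are CL5, CL6 and CL7 and triangles FL2, FL5 and FL12, from left to right, and bars are group means (n = 3). Mmp12 shows the widest gap between the groups, from at most 0.19 FPKM in CL to at least 4.02 FPKM in FL rats, and Timp1 is the tested gene whose groups overlap.

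The gelatinases Mmp2 and Mmp9 cut denatured collagen and basement membrane collagen. Mmp2 (ENSRNOG00000016695, chromosome 19) is typically made by stellate cells and fibroblasts, and was at 2.77, 3.36 and 2.54 FPKM in rats CL5, CL6 and CL7 and at 10.5, 19.2 and 20.8 FPKM in rats FL2, FL5 and FL12. FL5 and FL12 lay close together, FL2 was the lowest of the FL rats, and the groups did not overlap. The mean went from 2.89 ± 0.423 to 16.9 ± 5.55 FPKM (SD, n = 3). Mmp2 rose with a log2 fold change of 2.45 (SE 0.26, adjusted p = 0.00236), 2.16 above the median gene. The call was kept in all 14 alternatives run for this gene.

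Mmp9 (ENSRNOG00000017539, chromosome 3), the gelatinase of neutrophils and macrophages, was near the lower limit of these data. Its values were 0.06, 0.05 and 0.03 FPKM in the CL rats and 0.09, 0.59 and 0.14 FPKM in rats FL2, FL5 and FL12. FL5 stood well above the other FL rats, and FL2 was within 0.1 FPKM of the CL rats although the groups did not overlap. The log2 fold change of 1.11 had a 95% interval from -0.17 to 2.39 and did not pass the test (adjusted p = 0.189). Mmp9 reached the minimum mean through the FL group, and without FL5 it could not be tested.

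Mmp12 (ENSRNOG00000030187, chromosome 8), the elastase of macrophages, had the largest change of the 8 tested genes. It was at 0.02, 0.19 and 0.13 FPKM in rats CL5, CL6 and CL7 and at 4.02, 24.5 and 12.8 FPKM in rats FL2, FL5 and FL12. The lowest FL rat was far above the highest CL rat. The FL rats differed among themselves more than for any other gene of the family by SD in FPKM, which grows with the level. Relative to its mean, Mmp9 varied more (0.273 ± 0.275 FPKM in FL livers). For Mmp12, FL5 was the highest FL rat and FL2 the lowest. The mean rose from 0.113 ± 0.0862 to 13.8 ± 10.3 FPKM (SD, n = 3), with a log2 fold change of 5.77 (SE 0.62, adjusted p = 0.00257), 5.48 above the median gene. The size of the change rests on CL values near 0. It was 3.44 with a pseudocount of 1 and 6.84 with 0.01. It was 5.19 without FL5 and 6.48 without FL2. The call was kept in all 14 alternatives, at adjusted p-values between 0.000984 and 0.0165.

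Mmp12 lies in a row of MMP genes on chromosome 8. In the RefSeq annotation of GRCr8 the order of protein-coding genes there is Mmp13, Mmp12, Mmp1b, Mmp3, Mmp1, Mmp10, Mmp8, Mmp27, Mmp20 and Mmp7, and values of 8 of these 10 genes were used, Mmp1b and Mmp1 being not analysed here. Mmp13 (ENSRNOG00000008478), the interstitial collagenase of rodents and the direct neighbour of Mmp12, was listed at 0 in all CL rats and in FL2 and FL12, and at 0.02 FPKM in FL5. The stromelysin Mmp3, the nearest gene with values on the other side of Mmp12, was at 0.04, 0 and 0.03 FPKM in the CL rats and 0.04, 0.27 and 0.14 FPKM in the FL rats, below the minimum mean for the test. In each FL rat both were far below Mmp12, whereas in CL5 Mmp3 was slightly above it. Mmp8, the collagenase of neutrophils, was at 0.16, 0.10 and 0.04 FPKM in the CL rats and at 0.73, 0.28 and 0.35 FPKM in the FL rats (log2 fold change 1.43, SE 0.44, adjusted p = 0.0556). The Mmp8 groups did not overlap, FL2 was highest, and the test was not passed. Mmp7 (matrilysin), at the other end of the row, was listed at 0 in all CL rats and was at 0.21, 0.54 and 0.27 FPKM in the FL rats. Mmp7 was called upregulated (adjusted p = 0.0182), but it reached the minimum mean through the FL group alone, and no fold change is given against a group at 0. The Mmp7 call was lost with a pseudocount of 1 and without CL5, CL6 or CL7, at adjusted p-values up to 0.0627 over the alternatives. Mmp10, Mmp20 and Mmp27 stood at 0 to 0.05 FPKM in all rats.

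Promoter entries from RefSeq (GRCr8, 250 bases before to 50 bases after the start of the gene) were matched for 6 of the 10 genes: Mmp12, Mmp13, Timp1, Timp2, Timp3 and Timp4. They were searched on both strands for the AP-1 motif, spelled TGANTCA and bound by Fos and Jun proteins, for a box of the letters TATAAA, found near the start of many inducible genes, and for the GC box, spelled GGGCGG. The AP-1 motif was present in 7.33% of all 33469 promoters of this length, the TATAAA box in 14.2% and the GC box in 33.1%. Mmp12 and Mmp13 each held 1 AP-1 motif and 1 TATAAA box, and no GC box. The AP-1 motif of Mmp12 began at position -87 and its TATAAA box at -39, counted from the start of the gene. In Mmp13 they began at -66 and -47. The 150 bases before the start are shown for these neighbouring genes because they share both motifs while 1 of them rose and the other was listed at or near 0. Capitals mark the AP-1 motif. The Mmp12 stretch is chr8:12866502-12866651 and the Mmp13 stretch chr8:12782679-12782828, both on the plus strand of GRCr8.
Mmp12: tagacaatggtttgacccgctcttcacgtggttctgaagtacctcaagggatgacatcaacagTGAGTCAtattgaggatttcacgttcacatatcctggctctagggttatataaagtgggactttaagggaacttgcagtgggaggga
Mmp13: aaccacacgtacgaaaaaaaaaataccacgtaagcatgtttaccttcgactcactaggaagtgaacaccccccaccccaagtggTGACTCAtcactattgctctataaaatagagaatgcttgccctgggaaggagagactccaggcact
The inhibitor promoters differed in composition. None of the 4 held the AP-1 motif or the TATAAA box as spelled. Variant spellings, such as the tgagtaa in the Timp1 window, were not searched for. Timp1 and Timp2 each had 1 GC box and Timp3 had 3, and Timp4 had none. G and C made up 61.3% of the bases of Timp1, 70.3% of Timp2, 68.7% of Timp3 and 50.3% of Timp4, against 46.3% of Mmp12 and 45.3% of Mmp13. A motif match describes letters in this window and not binding.

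Mmp14 and Mmp19 were the most abundant genes of the family by mean and had the smallest ratios of FL to CL means among the tested genes. Mmp14 (ENSRNOG00000010947, chromosome 15) encodes a membrane-anchored collagenase that, with Timp2 as a bridge, activates the Mmp2 precursor on the cell surface. It was at 23.7, 25.5 and 24.2 FPKM in the CL rats and at 39.4, 38.9 and 41.4 FPKM in the FL rats. Both groups were tight and well apart. The means of 24.4 ± 0.931 and 39.9 ± 1.32 FPKM (SD, n = 3) differed by a ratio of 1.63, below the limit of 2 for a call, although the adjusted p was 0.00531. The log2 fold change was 0.70 (SE 0.10), 0.42 above the median gene.

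Mmp19 (ENSRNOG00000006778, chromosome 7), a secreted protease of basement membrane proteins, was at 20.2, 22.04 and 20.6 FPKM in rats CL5, CL6 and CL7 and at 27.6, 22.07 and 23.7 FPKM in rats FL2, FL5 and FL12. The groups touched, since FL5 lay just above CL6, and FL2 was the highest rat. The log2 fold change of 0.22 (95% interval -0.06 to 0.49, adjusted p = 0.232) did not pass the test and was -0.07 relative to the median gene. Its direction was not stable, with a value of -0.0079 after median scaling and 0.06 after quantile normalization.

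Timp2 was the most abundant inhibitor. Timp2 (ENSRNOG00000003148, chromosome 10) inhibits most MMPs and takes part in the activation of Mmp2. It was at 4.51, 5.88 and 5.32 FPKM in the CL rats and at 9.07, 14.9 and 16.7 FPKM in rats FL2, FL5 and FL12. The groups did not overlap and, as for Mmp2, FL2 was the lowest FL rat. The mean rose from 5.24 ± 0.689 to 13.5 ± 3.99 FPKM (SD, n = 3), with a log2 fold change of 1.32 (SE 0.23, adjusted p = 0.00984), 1.03 above the median gene. The call was kept in all 14 alternatives.

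Timp3 (ENSRNOG00000004303, chromosome 7), which stays bound to the matrix and also inhibits ADAM proteases, was at 2.39, 4.15 and 3.07 FPKM in the CL rats and at 5.30, 6.29 and 11.2 FPKM in rats FL2, FL5 and FL12. FL12 stood above the other FL rats, and the lowest FL rat was above the highest CL rat, CL6. Timp3 rose from 3.20 ± 0.888 to 7.58 ± 3.14 FPKM (SD, n = 3), with a log2 fold change of 1.18 (SE 0.30, adjusted p = 0.0324), 0.89 above the median gene. This was the least stable call of the family, lost in 9 of 14 alternatives, over which the adjusted p ranged from 0.0223 to 0.102. Among these were median scaling (adjusted p = 0.0663), quantile normalization (0.1001), and leaving out CL5 (0.0977), CL7 (0.102), FL5 (0.0739) or FL12 (0.0658).

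Timp1 (ENSRNOG00000010208, chromosome X), an inducible inhibitor widely used as a marker of liver fibrosis, was at 0.72, 2.93 and 1.33 FPKM in rats CL5, CL6 and CL7 and at 2.74, 4.81 and 3.59 FPKM in rats FL2, FL5 and FL12. CL6 was more than 2 times the level of either other CL rat and above FL2, so the groups overlapped. The means were 1.66 ± 1.14 and 3.71 ± 1.04 FPKM (SD, n = 3). The log2 fold change of 1.29 (95% interval 0.27 to 2.31, SE 0.44) did not pass the test after adjustment (adjusted p = 0.0795). Without CL6 it was 1.78 and the gene was called (adjusted p = 0.0252), and without CL5 it was 0.84 (adjusted p = 0.181). Over the 14 alternatives the adjusted p ranged from 0.0252 to 0.216. Timp4 (ENSRNOG00000007955, chromosome 4), the inhibitor best known from the heart, was at 0.05, 0 and 0.02 FPKM in the CL rats and at 0.04, 0.07 and 0.04 FPKM in the FL rats and was not tested.

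Each inhibitor gene overlaps another gene in the RefSeq annotation of GRCr8, as TIMP genes commonly lie within introns of synapsin genes. Timp1 overlaps Syn1, Timp3 overlaps Syn3 and Timp4 overlaps Syn2, whereas Timp2 overlaps Cep295nl. For long noncoding RNAs the study's methods state that antisense reads were left out. Whether the counting for other genes used the strand was not given in the sources used here. Reads of an overlapping pair may therefore not have been separated. Syn1 was at 0 to 0.14 FPKM over the 6 rats. Syn3 was at 0.06, 0.14 and 0.05 FPKM in the CL rats and at 0.26, 0.33 and 0.82 FPKM in the FL rats. Cep295nl was at 0.34, 0.19 and 0.26 FPKM in the CL rats and at 0.52, 1.41 and 1.42 FPKM in the FL rats, and like Timp2 was called upregulated (adjusted p = 0.0282). These partners were below the inhibitor they overlap in every rat, whereas Syn2, at 0 to 0.25 FPKM, was above Timp4 in CL5, CL6 and CL7.

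**Figure D2:**
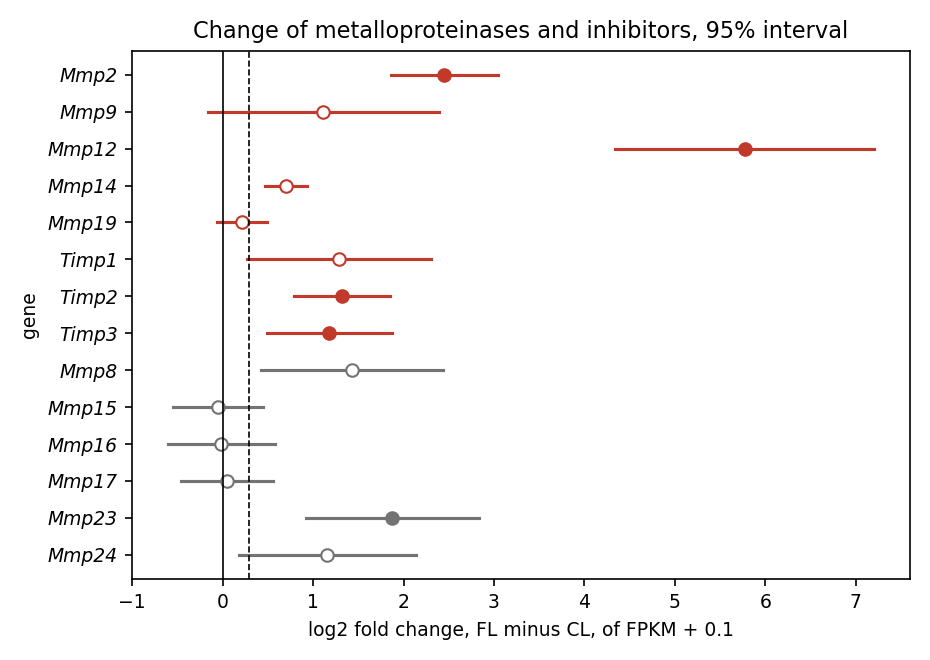
Log2 fold change (FL minus CL, of FPKM + 0.1) of the tested metalloproteinases and inhibitors (red) and of other tested MMP genes with values above 0 in CL rats (grey). Points are limma estimates from 3 rats per group, filled where called, lines are 95% intervals, the solid vertical line is 0 and the dashed line the median gene at 0.29. Mmp12, at 5.77, lies apart from the rest, and the interval of Mmp19 spans both vertical lines, its estimate being -0.0079 after median scaling.

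Ratios within a rat do not depend on the scaling between rats, and were read as descriptions without a test. Mmp2 over Timp2 was 0.614, 0.571 and 0.477 in CL5, CL6 and CL7 and 1.16, 1.29 and 1.25 in FL2, FL5 and FL12. Timp2 was thus the more abundant of this pair in each CL rat and Mmp2 in each FL rat, including FL2, where both were lowest of the FL rats. The ratio averaged 0.554 ± 0.06995 in CL and 1.23 ± 0.0684 in FL livers (SD, n = 3). Mmp2 over Mmp14 went from 0.118 ± 0.0134 to 0.422 ± 0.134, again without overlap. Mmp12 over Timp1 was at most 0.0977 in CL rats and 1.47, 5.10 and 3.57 in FL2, FL5 and FL12. The other ratios overlapped between the groups. Mmp14 over Timp2 was 5.25, 4.33 and 4.54 in the CL rats and 4.34, 2.62 and 2.47 in the FL rats, with only FL2 inside the range of the CL rats. Mmp9 over Timp1 and Timp1 over Timp2 also overlapped, with means of 0.0410 ± 0.0368 against 0.0648 ± 0.0502 and of 0.303 ± 0.175 against 0.280 ± 0.0578. The means of Mmp9 over Timp1 rested on single rats, at 0.0198 in CL without CL5 and 0.0359 in FL without FL5.

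Summed over the 6 MMPs, expression was 46.7, 51.1 and 47.5 FPKM in the CL rats and 81.6, 105.3 and 98.8 FPKM in the FL rats. Summed over the 4 TIMPs it was 7.67, 12.96 and 9.74 FPKM in the CL rats and 17.2, 26.02 and 31.5 FPKM in the FL rats. Both sums were higher in every FL rat than in any CL rat. The ratio of the sums overlapped between the groups, at 4.97 ± 1.08 in CL and 3.98 ± 0.814 in FL livers (SD, n = 3). The makeup of the MMP sum differed between the groups. Mmp19 went from 43.2 ± 0.164% to 26.2 ± 6.72% of it and Mmp14 from 50.5 ± 0.555% to 42.3 ± 5.70%, without overlap. Mmp2 went from 5.95 ± 0.613% to 17.4 ± 4.16%, and Mmp12 from 0.229 ± 0.169% to 13.7 ± 9.20%. The share of Mmp12 was 4.93% in FL2, 23.3% in FL5 and 12.97% in FL12, so in FL5 it exceeded that of Mmp19 (21.0%). The makeup of the TIMP sum overlapped between the groups for each inhibitor, Timp2 being at 52.9 ± 6.87% and 54.3 ± 2.37%.

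The FL rats did not rank alike for all genes. FL2 was the lowest FL rat for 6 of the 8 tested genes (Mmp2, Mmp9, Mmp12, Timp1, Timp2 and Timp3), and FL5 for the other 2 (Mmp14 and Mmp19). FL5 was highest for 3 (Mmp9, Mmp12 and Timp1) and FL12 for 4 (Mmp2, Mmp14, Timp2 and Timp3). Among CL rats CL6 was highest for 7 of the 8, all but Mmp9. CL6 also had the highest FPKM sum, and its relative depth was among the lowest, with those of FL2 and FL12. The part of the sum and the depth in the result was not tested.

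Among 17 further MMP genes, 11 were listed and 7 could be tested, of which 2 were called upregulated (Mmp7 and Mmp23) and 0 downregulated (0 lower at an unadjusted p under 0.05 in limma), against 9.29% and 0.935% of all genes tested. Mmp7 passed the filter through the FL group alone, and without it only Mmp23 was called. The median log2 fold change of the tested genes was 1.16, against 0.29 for all genes, with Mmp7 among them. The others were at 1.87 (Mmp23), 1.43 (Mmp8), 1.16 (Mmp24), 0.05 (Mmp17), -0.01 (Mmp16) and -0.05 (Mmp15), so without Mmp7 the median would be lower. The median of the list was not stable, at 0.32 with no filter, 0.33 with a pseudocount of 1, 0.57 after quantile normalization and 0.58 without FL5. The number called ran from 0 to 3 over 14 alternatives, with 0 without CL5, CL7 or FL5. Mmp23, a membrane-bound family member, was at 0.29, 0.53 and 0.54 FPKM in the CL rats and at 0.94, 2.50 and 2.76 FPKM in the FL rats. It showed the same order of FL rats as Mmp2, and its groups did not overlap. Its log2 fold change was 1.87 (SE 0.41, adjusted p = 0.0208). The Mmp23 call was lost in 5 of 14 alternatives, namely quantile normalization and leaving out CL5, CL7, FL5 or FL12, with an adjusted p of at most 0.0776. The membrane-type Mmp15, the most abundant of this list, stood at 4.48 ± 0.463 and 4.43 ± 1.20 FPKM (SD, n = 3) and did not pass the test (adjusted p = 0.885).

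MMPs depend on other proteins for activation, inhibition and removal, and 17 genes with such roles were tested. Of these, 6 were called upregulated (Cd44, A2m, Lcn2, Plau, Plat and Thbs2) and 0 downregulated (0 lower at an unadjusted p under 0.05 in limma), with a median log2 fold change of 0.65. This compares with 9.29% of all genes called upregulated. The number called ran from 3 to 8 over 14 alternatives, with 3 after quantile normalization and without any 1 of the rats other than FL2. A2m, the plasma protease trap alpha-2-macroglobulin, was at 0.56, 0.59 and 0.59 FPKM in the CL rats and at 10.5, 2.46 and 3.86 FPKM in rats FL2, FL5 and FL12 (log2 fold change 2.81, SE 0.46, adjusted p = 0.00789). Lcn2, which binds Mmp9 and protects it from degradation, was at 1.35, 1.35 and 3.75 FPKM in the CL rats and at 490.5, 13.1 and 168.4 FPKM in the FL rats (log2 fold change 5.68, SE 1.15, adjusted p = 0.0152). Both were highest in FL2, the rat with the lowest level of most MMPs and TIMPs in the FL group. Cd44, a hyaluronan receptor that can hold Mmp9 at the cell surface, was at 0.797 ± 0.261 and 4.07 ± 0.999 FPKM (SD, n = 3; log2 fold change 2.23, adjusted p = 0.00414). The calls of Cd44 and A2m were kept in all 14 alternatives. Those of the plasminogen activators Plau and Plat, of Lcn2 and of the matricellular Thbs2 were lost in 3 to 8 alternatives, with adjusted p-values of at most 0.117. Plasminogen (Plg), the most abundant gene of the list, was at 1058 ± 38.8 and 961 ± 106 FPKM (SD, n = 3; adjusted p = 0.671). The convertase Furin, which cleaves the Mmp14 precursor, was at 65.1 ± 5.82 and 63.6 ± 3.85 FPKM (adjusted p = 0.873).

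Of 17 matrix genes whose proteins MMPs cleave, 16 were tested, 12 were called upregulated and 0 downregulated (0 lower at an unadjusted p under 0.05 in limma), with a median log2 fold change of 1.58, against 0.29 for all genes, of which 9.29% were called upregulated and 0.935% downregulated. Over 14 alternatives 7 to 14 were called, with 7 without CL7, 8 without FL5 and 14 without FL2. They were Col1a1, Col3a1, Col4a1, Col4a2, Col5a1, Col6a1, Eln, Lamb1, Dcn, Bgn, Vcan and Spp1. Col3a1, a fibrillar collagen, was at 46.5, 51.8 and 48.7 FPKM in the CL rats and at 140.5, 341.7 and 338.6 FPKM in rats FL2, FL5 and FL12 (log2 fold change 2.37, SE 0.32, adjusted p = 0.00490). Elastin (Eln), a substrate of Mmp12, was at 2.28, 2.69 and 2.65 FPKM in the CL rats and at 8.36, 18.6 and 25.9 FPKM in the FL rats (log2 fold change 2.60, SE 0.36, adjusted p = 0.00493). Both were lowest in FL2 among the FL rats, as were most of the MMPs and TIMPs. Fibronectin (Fn1), the most abundant gene of the list, was highest in FL2 and did not pass the test (376 ± 27.3 and 415 ± 122 FPKM, adjusted p = 0.782). The calls of Col4a2, Col5a1, Lamb1, Vcan and Spp1 were lost in 1 to 8 alternatives, with adjusted p-values of at most 0.102.

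Among 10528 other genes (mean FPKM 1 or above), the 3 closest to each tested gene were found by the root mean square difference of their log2 values over the 6 rats, each centred on its mean. Closest to Mmp2 were Hist1h1b (difference 0.152), Ednrb (0.157) and Col3a1 (0.157). Closest to Mmp12 were Spp1 (0.794), Dbp (0.799) and Trem2 (0.822), the widest distances of the 8 genes. Mmp9 was nearest to Cyr61 (0.162), Rsad2 (0.210) and Rn60_20_0051.7 (0.278). Genes were chosen by likeness over these same rats, so an order of rats shared with a member is no separate result. Timp1 was nearest to AABR07019083.1 (0.225), Evi2b (0.278) and Emp3 (0.281). Unlike in Timp1, CL6 was below every FL rat in all 3. Timp2 was nearest to Nav1 (0.0832), Smc4 (0.0918) and Marcks (0.103), and Timp3 to Pir (0.0873), RGD1564664 (0.113) and Pak1ip1 (0.143). Mmp14 was nearest to Fam92a1 (0.0366), Rn60_14_0846.1 (0.0454) and Rpsa (0.0464). Mmp19 was nearest to Pdhb (0.0298), Atg5 (0.0313) and Malt1 (0.0353).

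Markers of cell types that commonly make MMPs and TIMPs were read beside these results, and 9.29% of all genes tested were called upregulated. Of 14 macrophage markers, 7 were called upregulated (Cd68, Csf1r, Marco, Itgam, Trem2, Gpnmb and Lyz2), and their summed level was 179, 165 and 172 FPKM in the CL rats and 446, 526 and 331 FPKM in rats FL2, FL5 and FL12. Trem2 reached the minimum mean through the FL group, being at 0.0833 FPKM on average in CL livers. Gpnmb was the most abundant in FL livers and Clec4f in CL livers. Clec4f, a Kupffer cell marker, was at 47.2 ± 3.52 and 50.1 ± 21.1 FPKM (SD, n = 3; adjusted p = 0.974). Without Gpnmb the sums were level in FL2 and FL5, at 381 and 382 FPKM. Of 12 stellate cell and myofibroblast markers, 5 were called upregulated (Des, Pdgfrb, Pdgfra, Loxl2 and Sparc), with sums of 166, 109 and 132 FPKM in the CL rats and 168, 313 and 275 FPKM in the FL rats. Sparc was the most abundant in FL and Dpt in CL livers, and without Sparc the sums overlapped between the groups (107 FPKM in FL2 and 131 FPKM in CL5). Lrat, the retinol enzyme of quiescent stellate cells, was at 8.57 ± 1.31 and 8.12 ± 0.919 FPKM (adjusted p = 0.758). FL2 was lowest of the FL rats here, as it was for Mmp2, Timp2 and Timp3. Acta2, the actin of activated stellate cells, was at 3.85, 2.62 and 2.68 FPKM in the CL rats and at 3.87, 17.3 and 9.59 FPKM in the FL rats (adjusted p = 0.0609). Of 9 neutrophil markers, 8 were listed and 4 tested, and 3 were called upregulated (S100a8, S100a9 and Csf3r). Their sums were 0.37, 0.97 and 1.22 FPKM in the CL rats and 4.91, 2.11 and 4.85 FPKM in the FL rats, with S100a8 most abundant, and Mpo, Elane and Np4 were listed at 0 in all CL rats. Camp was at 0.12 FPKM in CL5 and listed at 0 in all other rats. FL5, the FL rat with the highest Mmp9, had the lowest neutrophil sum of its group, and Mpo, Elane and Np4 were listed at 0 in it. The calls of S100a8 and S100a9 were lost in 11 of 14 and 10 of 13 alternatives, with an adjusted p of at most 0.200, those of Pdgfra in 6, Csf1r and Csf3r in 3 each, Sparc in 2 and Loxl2 in 1. No marker of these lists was called downregulated (0 lower at an unadjusted p under 0.05 in limma). The part of these cell types in the levels of MMPs and TIMPs was not tested.

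Other cell types were read in the same way. Of 9 hepatocyte markers 0 were called in either direction (1 higher and 0 lower at an unadjusted p under 0.05 in limma), and their sums were 53015, 50380 and 51022 FPKM in the CL rats and 45454, 44758 and 43538 FPKM in the FL rats, with Alb most abundant. Without Alb the sums overlapped between the groups. For Alb, Ttr, Apob and Hnf4a every FL rat was below every CL rat. The share of all genes with this pattern is not given here, so nothing is read from it. For 2 of the 9 (Apoa1 and Tf) every FL rat was above every CL rat, against 35.7% of all genes tested. Of the 9 log2 fold changes 5 were positive, against 77.9% of all genes tested. For Alb the SE of the fit was wide (log2 fold change -0.38, SE 0.98). It was also wide for Tf (0.48) and Ttr (0.42), whose groups did not overlap, against 0.12 for Hnf4a. The lack of a call, or of a low unadjusted p, therefore says little for these abundant markers. Of 8 endothelial markers listed, Vwf was called upregulated (lost in 9 of 14 alternatives), and the sums were 84.2, 81.1 and 73.0 FPKM in the CL rats and 98.3, 84.6 and 93.6 FPKM in the FL rats, Kdr being the most abundant in CL and Lyve1 in FL livers. Of 7 cholangiocyte markers, Spp1, which is also in the matrix list, was called upregulated and was the most abundant in FL livers, and Epcam in CL livers. The cholangiocyte sums were 10.3, 16.0 and 10.9 FPKM in the CL rats and 19.1, 75.0 and 48.3 FPKM in the FL rats. Without Spp1 they overlapped between the groups, and Krt19 was at 0.590 ± 0.0361 and 0.637 ± 0.368 FPKM (SD, n = 3). Of 11 lymphocyte markers, 8 were tested and Cd4, the most abundant, was called upregulated, with sums of 12.3, 10.3 and 11.2 FPKM in the CL rats and 23.4, 30.6 and 24.0 FPKM in the FL rats. Cd4 carried these sums, which without it were 2.36, 1.99 and 2.94 FPKM in the CL rats and 5.18, 6.76 and 2.68 FPKM in the FL rats, with FL12 below CL7. The single calls among endothelial, cholangiocyte and lymphocyte markers are near the 9.29% of all genes tested. None of these markers was called downregulated (0 lower at an unadjusted p under 0.05 in limma). Their part in the result was not tested either.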

How the data were processed

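Per the labels and the study's methods, the authors deposited FPKM with 2 decimals for each rat, made from uniquely placed reads after trimming (FASTX-Toolkit) and alignment (TopHat2). The genome is named as GRCh38 in the submitters' notes, whereas the gene identifiers are rat Ensembl ones. The release of the annotation was not given in the sources used here. Read counts, on which the study ran edgeR, were not used here. A further 2 columns of values were not matched to a sample and not used. Groups came from the labels. FPKM are not counts, so FL and CL were compared with limma 3.58.1 (R 4.3.3, trended prior, tested on simulated data) on log2(FPKM + 0.1), over 14864 genes (mean FPKM 0.1 or above), with Benjamini-Hochberg adjustment over them. Pairs of libraries shared 0.866% to 2.54% of values above 0, so no pair was treated as a duplicate. Named genes were the 10 members, the 3 nearest genes of each, and, from lists of further MMPs, activation and clearance genes, matrix substrates, inducers and markers of 7 cell types, those called and the most abundant. Others (the row on chromosome 8, overlapping genes, Acta2, Furin, Krt19, Camp, Mpo, Elane, Np4, Clec4f, Lrat, Ttr, Apob, Hnf4a, Apoa1, Tf, Dpt, Lyve1, Epcam, Mmp8, Mmp16, Mmp17, Mmp24, Jun, Junb, Jund, Fos, Fosb, Fosl1, Fosl2, Osm and Csf1) were chosen after their values were seen. Of the listed genes, 1 is not reported here and was left out of the counts. Members and lists were chosen with earlier results of these data known. Promoters came from RefSeq (GRCr8). Alternatives were pseudocounts of 1 and 0.01, no filter or a mean of at least 1 FPKM, a robust prior or no trend in limma, quantile normalization, median scaling, no fold limit, and leaving out each rat; their use on the genes of the lists, and sums of markers without the most abundant, were added after seeing the data. Tables and figures used Python 3.11.15, numpy 2.4.6, pandas 2.3.3 and matplotlib 3.10.9.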

Additional observations from a re-analysis of the deposited data

How the results depend on the processing

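Mmp2, Mmp12 and Timp2 kept their calls in all 14 alternatives, and the number of the 10 genes called upregulated lay between 3 and 5, with 0 downregulated throughout. Of 110 log2 fold changes of single genes under the alternatives, 99 kept direction and call and 11 did not. Of these, 9 were lost calls of Timp3, 1 was Timp1, called without CL6, and 1 was Mmp19, at -0.0079 after median scaling. The cause was not tested. The 110, like the counts over 14 alternatives, leave out the setting with no fold limit, under which Mmp14 was called upregulated. Mmp9 could not be tested without FL5 or at a mean of at least 1 FPKM, having too low a mean. Over all genes, 1381 were called upregulated and 139 downregulated. Upregulated genes numbered 462 with a pseudocount of 1, 854 at a mean of at least 1 FPKM, 826 after median scaling, 453 after quantile normalization, 2518 with no fold limit, and 740 to 1831 with a rat left out. Downregulated genes numbered 72 with a pseudocount of 1, 231 after quantile normalization (beside 453 upregulated), 288 with no fold limit, and 81 to 160 with a rat left out. No paired analysis was possible because the groups share only 1 number, carried by different rats. Read numbers of single rats were not used here, so no counting error was attached to low values such as those of Mmp7, Mmp9, Mmp13 and Timp4. Protein level, activity and cell of origin were not measured in these data.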

Other observations

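Of 20 genes of cytokines and transcription factors known to induce MMP genes, 19 were listed and 16 tested, of which 2 were called upregulated (Tgfb1 and Runx1) and 0 downregulated (0 lower at an unadjusted p under 0.05 in limma), with a median log2 fold change of 0.66 against 0.29 for all genes. Among the tested genes Osm reached the minimum mean through the FL group, being at 0.0467 FPKM on average in CL livers, and it is part of this median. The count called upregulated is near the 9.29% of all tested genes, and it ran from 0 (after quantile normalization) to 3 over 14 alternatives. With no limit on the fold change it was 4, against 16.9% of all genes. Tgfb1, the main fibrogenic cytokine, was at 3.37, 4.01 and 3.78 FPKM in the CL rats and at 6.72, 10.8 and 8.54 FPKM in rats FL2, FL5 and FL12 (log2 fold change 1.18, SE 0.18, adjusted p = 0.00686). As for Mmp12, FL5 was highest and FL2 lowest, and the groups did not overlap. The Tgfb1 call was lost after median scaling and after quantile normalization, where the adjusted p over all alternatives stayed between 0.00384 and 0.0329 and the fold change was below the limit. Runx1 was at 0.257 ± 0.114 and 0.920 ± 0.0656 FPKM (SD, n = 3; log2 fold change 1.57, adjusted p = 0.0153), a call lost in 3 of 13 alternatives, among them without FL5 (adjusted p of at most 0.0911).

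Among the AP-1 genes of the list, Jun, Junb, Jund, Fos, Fosb and Fosl1 overlapped between the groups, and Fosl2 did not. Over all genes tested, every FL rat was above every CL rat in 35.7%. Fosb and Fosl1 were below the minimum mean for the test. Jun was at 4.10, 11.7 and 8.85 FPKM in the CL rats and at 10.1, 22.0 and 8.23 FPKM in the FL rats, and Junb at 7.66, 11.3 and 8.38 FPKM and at 19.7, 33.6 and 9.15 FPKM. FL5 was the highest rat for both, the groups overlapped, and neither passed the test (adjusted p = 0.303 for Jun and 0.123 for Junb). Fos stood at 0.13 to 0.53 FPKM over the 6 rats and overlapped too, as did Jund, with means of 12.04 ± 2.03 and 10.7 ± 2.25 FPKM (SD, n = 3). Fosl2 was at 1.23, 2.12 and 1.83 FPKM in the CL rats and at 2.19, 4.54 and 2.72 FPKM in the FL rats. The Fosl2 groups did not overlap, and the test was not passed (adjusted p = 0.0997). Stat3, the most abundant gene of the list, was at 44.9 FPKM in FL2 and at 20.2 to 23.8 FPKM in the other rats. Csf1, the growth factor of macrophages, was at 3.31 ± 0.269 and 6.73 ± 0.725 FPKM (SD, n = 3), with an adjusted p of 0.00493 and a log2 fold change of 0.9995 that fell just short of the limit for a call.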
